A study of Mus musculus with 12 samples.

Results

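The D cyclins and the proteins that act on their kinases were followed as 10 genes: the cyclins Ccnd1, Ccnd2 and Ccnd3, the kinases Cdk4 and Cdk6, the CDK inhibitors Cdkn1a, Cdkn1b, Cdkn1c and Cdkn2c, and the pocket protein gene Rb1. They were taken by name from the 22915 genes of the expression table, and all 10 were among the 13184 genes that had enough signal to be tested. Primary cardiomyocytes of adult male C57/Bl6 mice, 12 weeks old, were cultured and treated for 24 h under normoxia with mLIF, mOSM or hlOSM, and controls received the solvent, PBS, alone. mLIF is mouse leukemia inhibitory factor, which signals through LIFR, and mOSM is mouse oncostatin M, which signals through OSMR. hlOSM is a mouse oncostatin M that carries a stretch of the human protein and engages both OSMR and LIFR, and each receptor pairs with gp130. The sample labels give 25 ng/mL for every cytokine, whereas the study's text gives a lower dose, and each of the 4 groups has 3 libraries.

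D cyclins are made in response to growth factors and bind CDK4 or CDK6. The active pair phosphorylates the retinoblastoma protein, which then releases E2F factors, and these switch on the genes of DNA replication and, later, mitosis. Inhibitors of the INK4 family bind the kinases themselves, whereas those of the Cip/Kip family bind cyclin-CDK complexes. Adult cardiomyocytes seldom divide, and high levels of CDK inhibitors and of retinoblastoma family proteins are known features of this state.

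Values are normalized counts, that is, read counts scaled between libraries by the authors and rounded. A fold change is given as log2 of the normalized count plus 1, and a gene was called when its adjusted p in limma was under 0.05 after Benjamini-Hochberg correction over all 13184 genes. The totals of the 12 libraries lay between 2745748 and 2911891 normalized counts, which is not their read number. The study's methods give an average read number per library but not that of each library, so that the depth behind single values is unknown. The study's methods call its samples biological replicates in passing, but neither they nor the labels say whether the 3 libraries of a group came from separate preparations, and p-values measure only the spread between these libraries. The replicate number held much less of the spread within groups than it would without any effect. If a replicate effect was removed before deposit, which is not stated, the fit overstates its degrees of freedom and its p-values are too small, so calls that end with the replicate number as a block are named or counted. All 6 cardiomyocyte markers were high, with Myh6 between 2716 and 4060 normalized counts, but markers of other cells were present as well. In PBS the 6 cardiomyocyte markers summed to 14808 to 16434 normalized counts, 7 fibroblast markers to 2251 to 2483, 7 endothelial markers to 1142 to 1213, 7 smooth muscle and pericyte markers to 512 to 680 and 7 macrophage markers to 301 to 319. In such bulk RNA, fewer cells of a type and less RNA per cell cannot be told apart.

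Counted over the 10 genes, 1 rose (Cdk4) and 1 fell (Cdkn1c) with mLIF, where 9.91% of all genes tested were called. With mOSM, 1 rose (Cdk4) and 3 fell (Ccnd1, Ccnd2 and Cdkn2c), against 31.2% of all genes called. With hlOSM, 2 rose (Cdk4 and Rb1) and 3 fell (Ccnd1, Ccnd2 and Cdkn1c), against 37.9%. These counts are set beside the shares of all genes and are no result about the 10 genes as a group. The median log2 fold change of the 10 genes was -0.02, -0.17 and -0.11, and that of all genes lay between -0.01 and 0.00.

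Between cytokines, 2 of the 10 fell with mOSM against mLIF (Ccnd1 and Cdkn2c), where 11.8% of all genes were called. With hlOSM against mLIF only Ccnd1 fell, where 16.6% were called. None was called by limma for hlOSM against mOSM, where 0.106% of all genes were called. In that comparison 1 of the 10, Cdkn2c, had an unadjusted p under 0.05, as did 987 of all 13184 genes. None was called for the interaction, where 0.167% of all genes were called. There 2 of the 10, Cdk4 and Cdkn2c, had an unadjusted p under 0.05, as did 1521 of all 13184 genes.

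Ccnd1 fell about 3-fold with both OSMR ligands and was not called with mLIF. It encodes cyclin D1, and lies at chr7:144929931-144939925 on mm10. Its values were 278, 295 and 304 normalized counts with PBS and 278, 256 and 291 under mLIF. mOSM gave 90, 98 and 77, and hlOSM gave 90, 84 and 104. All 6 libraries treated with an OSMR ligand thus lay below all 6 others, whereas PBS and mLIF overlapped. The means were 292 ± 13.2 with PBS, 275 ± 17.7 with mLIF, 88.3 ± 10.6 with mOSM and 92.7 ± 10.3 with hlOSM (SD, n = 3 each).

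Against PBS, the log2 fold change of Ccnd1 was -1.72 with mOSM (SE 0.094, adjusted p = 6.07e-12 in limma), or 3.30-fold lower, and -1.65 with hlOSM (SE 0.094, adjusted p = 8.47e-12), or 3.14-fold lower. With mLIF it was -0.09 (95% interval -0.28 to 0.11, adjusted p = 0.591). Only 69 of the 13184 genes had a lower fold change than Ccnd1 with mOSM, and 123 with hlOSM, and among the 8670 genes with a mean of at least 50 normalized counts these were 11 and 27. Set directly against mLIF, Ccnd1 had log2 fold changes of -1.63 with mOSM (adjusted p = 3.72e-11) and -1.56 with hlOSM (adjusted p = 9.07e-11), both called. mOSM and hlOSM differed by 0.07 (95% interval -0.13 to 0.27, adjusted p = 0.926). Of the exonic bases of Ccnd1, 23.4% overlap LTO1 on the other strand. Whether counting used the strand is not given in the sources used here. LTO1 had means of 89.3, 99.7, 88.0 and 102 normalized counts with PBS, mLIF, mOSM and hlOSM and was called in none of the comparisons with PBS.

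**Figure D1:**
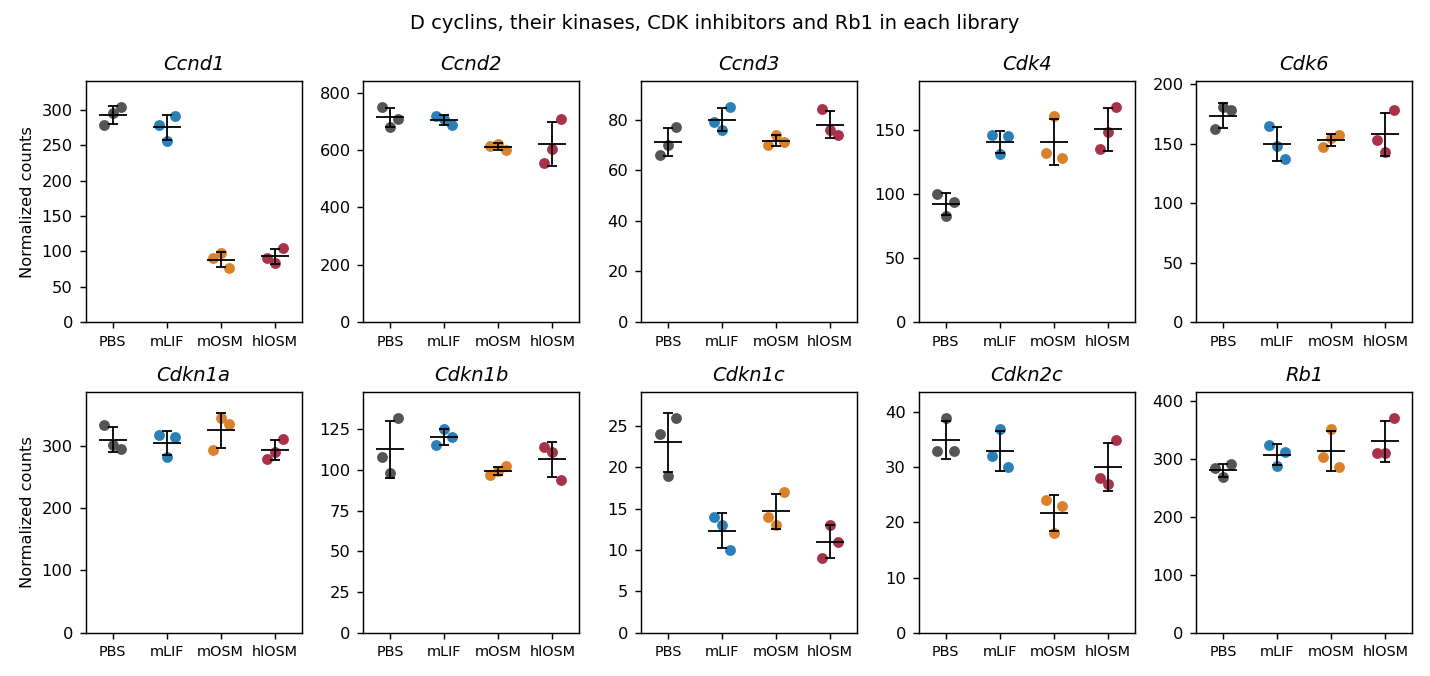
Normalized counts of the 10 genes (vertical axes, linear and from 0) in each of the 3 libraries with PBS, mLIF, mOSM and hlOSM, with bars for mean and SD. Ccnd1 lies between 77 and 104 in the 6 mOSM and hlOSM libraries and between 256 and 304 in the 6 others, and all 9 cytokine libraries of Cdk4, from 128 to 168, lie above the 3 PBS libraries, from 83 to 100.

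Ccnd2, which encodes cyclin D2, changed little. It was measured at 751, 682 and 709 normalized counts with PBS and 720, 709 and 688 under mLIF. Its values were 614, 622 and 599 under mOSM and 554, 604 and 707 under hlOSM. The mOSM libraries lay below all PBS libraries, whereas hlOSM replicate 3 lay within the PBS range. It fell by 0.22 on the log2 scale with mOSM (SE 0.068, adjusted p = 0.0154 in limma) and by 0.21 with hlOSM (SE 0.068, adjusted p = 0.0204), and was -0.02 with mLIF (adjusted p = 0.907). Without PBS replicate 1 the call was lost with mOSM (adjusted p = 0.0751) and with hlOSM (adjusted p = 0.0921), and with hlOSM it was also lost without hlOSM replicate 1 (adjusted p = 0.156) or replicate 2 (adjusted p = 0.066). Against mLIF, the adjusted p of Ccnd2 was 0.0513 with mOSM and 0.0598 with hlOSM. The first passed under 5 of the 9 other settings of the fit, where it lay between 0.0134 and 0.0492.

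Ccnd3, for cyclin D3, had 66, 70 and 77 normalized counts with PBS, 79, 76 and 85 under mLIF, 70, 74 and 71 under mOSM, and 84, 76 and 74 under hlOSM. The PBS range overlapped that of every cytokine, and Ccnd3 was called in no comparison, with log2 fold changes against PBS of 0.17, 0.02 and 0.13.

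Levels of different genes were compared per kb of exon, over the joined exons of all annotated transcripts of a gene. These came to 8.775 kb for Ccnd3, 9.409 kb for Ccnd2 and 13.99 kb for Cdk6, against 3.249 kb for Cdk4. Which transcripts these cells make was not tested, and exons that they do not use would understate a gene. Shares, ratios and orders between genes depend on these lengths. If counting ignored the strand, reads in bases shared with another gene were dropped. Such a loss would be largest for Ccnd1 (23.4% shared), Cdk4 (19.7%) and Cdkn1c (30.7%). On this scale the 3 D cyclins together had 146 ± 2.80 normalized counts per kb with PBS, 142 ± 3.58 with mLIF, 91.9 ± 3.64 with mOSM and 94.6 ± 9.67 with hlOSM (SD, n = 3 each). The share of Ccnd1 in this sum was 42.5% ± 1.89 with PBS and 41.0% ± 1.73 with mLIF, and 20.4% ± 1.66 with mOSM and 20.8% ± 1.08 with hlOSM. Ccnd2 made up 52.0%, 52.7%, 70.8% and 69.7% of it. On this scale, which rests on the long joined exons of Ccnd3, that gene held less than the others in every group, with group means from 5.54% to 9.49%. Among the 10 genes, Ccnd1 had rank 3 in level per kb with PBS and with mLIF and rank 6 with mOSM and with hlOSM.

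Cdk4 rose with all 3 cytokines. It encodes the kinase that cyclin D activates in most cells, and lies at chr10:127063534-127067920. Its values were 100, 83 and 94 normalized counts with PBS, 146, 131 and 145 under mLIF, 132, 161 and 128 under mOSM, and 135, 148 and 168 under hlOSM. All 9 treated libraries lay above the 3 controls, and the cytokines overlapped one another. The log2 fold change against PBS was 0.60 with mLIF (SE 0.103, adjusted p = 0.000803 in limma), 0.60 with mOSM (adjusted p = 0.000115) and 0.70 with hlOSM (adjusted p = 1.38e-05), that is, 1.52-, 1.51- and 1.62-fold higher. These 3 comparisons share the PBS libraries. No 2 cytokines differed by a called amount, and the 95% interval of the difference was -0.22 to 0.21 for mOSM against mLIF, -0.12 to 0.31 for hlOSM against mLIF and -0.11 to 0.31 for hlOSM against mOSM.

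The log2 fold change of Cdk4 with hlOSM was below the sum of those with mLIF and with mOSM. The interaction, hlOSM minus mOSM against mLIF minus PBS, was -0.50 on the log2 scale (95% interval -0.81 to -0.20), but it did not pass after correction (adjusted p = 0.163 in limma). This contrast was added after the data had been seen. Of the exonic bases of Cdk4, 19.7% overlap Tspan31 on the other strand. Tspan31 had means of 109, 118, 128 and 119 normalized counts with PBS, mLIF, mOSM and hlOSM. Like Cdk4, it was called as risen with mOSM against PBS (log2 fold change 0.24, adjusted p = 0.0389 in limma). The replicate block ended this call of Tspan31 (adjusted p = 0.0951), and its part in the Cdk4 values was not tested.

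Cdk6, the other kinase partner of D cyclins, had 162, 181 and 178 normalized counts with PBS and 165, 148 and 137 under mLIF. It had 147, 155 and 157 under mOSM and 153, 143 and 178 under hlOSM. The mOSM libraries lay below the PBS libraries and the other cytokines overlapped them, and no difference was called, with log2 fold changes of -0.21 (adjusted p = 0.137), -0.18 (adjusted p = 0.135) and -0.14 (adjusted p = 0.233). Per kb of exon, the ratio of Cdk4 to Cdk6 was 2.30 ± 0.343 with PBS, 4.06 ± 0.431 with mLIF, 3.95 ± 0.486 with mOSM and 4.11 ± 0.331 with hlOSM (SD, n = 3 each). The highest PBS library, at 2.66, lay below the lowest treated library, at 3.51.

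**Figure D2:**
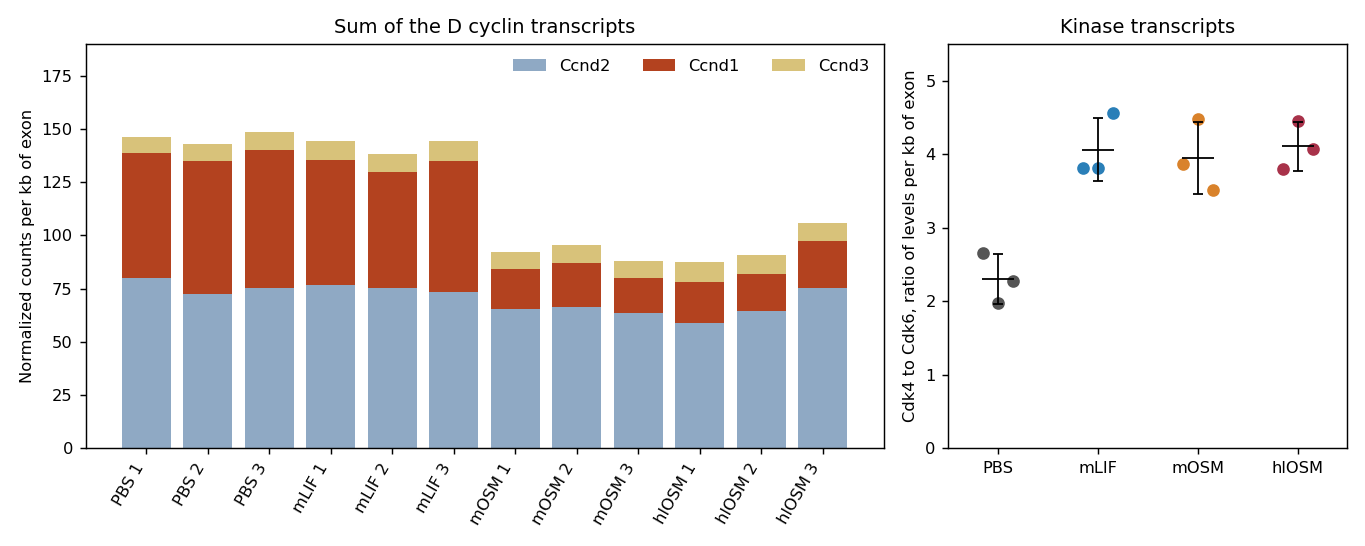
Left, the level of the 3 D cyclin transcripts in each of the 12 libraries, in normalized counts per kb of exon, stacked by gene. Right, the ratio of Cdk4 to Cdk6 per kb of exon in each library, with bars for mean and SD. The stack drops from 138 to 149 with PBS and mLIF to 87.6 to 106 with mOSM and hlOSM, chiefly in the Ccnd1 segment, and the ratio is above 3.5 in every treated library.

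RefSeq promoter windows run from 250 bases before to 50 bases after a transcription start on GRCm38.p6. Such windows, 9 in all, were at hand for 6 of the 10 genes and not for Ccnd1, Ccnd2, Cdkn1c and Rb1. Those of both kinases are shown because Cdk4 was the one gene of the 10 that was called with every cytokine, while Cdk6, the other kinase, was called with none. Capitals mark CACGTG, the E-box that Myc and related factors bind, which reads the same on both strands. The Cdk4 window lies at chr10:127063285-127063584 on the plus strand and the Cdk6 window at chr5:3343643-3343942 on the plus strand.
Cdk4: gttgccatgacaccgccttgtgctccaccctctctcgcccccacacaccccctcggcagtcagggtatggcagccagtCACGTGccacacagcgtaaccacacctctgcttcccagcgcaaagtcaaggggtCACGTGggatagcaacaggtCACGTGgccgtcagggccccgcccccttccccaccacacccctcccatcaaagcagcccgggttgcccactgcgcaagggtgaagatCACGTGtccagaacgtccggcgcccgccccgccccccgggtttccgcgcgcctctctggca
Cdk6: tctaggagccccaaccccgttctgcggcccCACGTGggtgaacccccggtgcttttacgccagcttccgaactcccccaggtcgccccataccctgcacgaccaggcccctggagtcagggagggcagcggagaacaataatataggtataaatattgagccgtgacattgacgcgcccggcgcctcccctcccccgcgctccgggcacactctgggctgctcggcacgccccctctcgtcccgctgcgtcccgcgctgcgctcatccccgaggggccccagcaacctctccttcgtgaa

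The Cdk4 window held 4 such E-boxes, which begin at -172, -118, -98 and -11 from the start, and the Cdk6 window held 1, at -220. At least 1 CACGTG was present in 7.15% of all 32851 promoter windows of this length, and 4 or more in 8 windows, or 0.0244%. Of the other windows, 1 of the 2 of Cdkn2c held a CACGTG. The letters TTCNNNGAA, the palindrome bound by STAT factors, occurred in none of the 9 windows, against 8.3% of all windows. The E2F letters TTTGGCGC and TTTCCCGC, searched on both strands, were in none of them either, and in 0.514% and 1.07% of all windows. A match or its absence describes these letters in these windows and no more. It says nothing of Ccnd1, Ccnd2, Cdkn1c or Rb1, which had no window.

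Of the Cip/Kip inhibitors, Cdkn1a and Cdkn1b were called in no comparison and Cdkn1c fell with mLIF and hlOSM. Cdkn1a encodes p21, the inhibitor through which p53 arrests the cell cycle. It had 333, 301 and 295 normalized counts with PBS and 317, 282 and 314 under mLIF. It had 293, 345 and 335 under mOSM and 278, 290 and 311 under hlOSM. All groups overlapped. The 95% interval of its log2 fold change against PBS was -0.18 to 0.13 with mLIF, -0.09 to 0.22 with mOSM and -0.23 to 0.08 with hlOSM.

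Cdkn1b, for p27, had 108, 98 and 132 normalized counts with PBS, 115, 125 and 120 under mLIF, 97, 99 and 102 under mOSM, and 114, 111 and 94 under hlOSM. Each cytokine overlapped PBS. Its largest difference was that of mOSM against mLIF, where the 3 mOSM libraries lay below the 3 mLIF libraries, with a log2 fold change of -0.27 that did not pass (adjusted p = 0.105 in limma).

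Cdkn1c encodes p57, an imprinted inhibitor that is prominent in the developing heart, and lies at chr7:143458339-143461050. It was low, with 24, 19 and 26 normalized counts with PBS, 14, 13 and 10 under mLIF, 14, 13 and 17 under mOSM, and 9, 13 and 11 under hlOSM. All 9 treated libraries lay below the 3 controls. It fell by 1.00 on the log2 scale with hlOSM (SE 0.234, adjusted p = 0.00172 in limma), or 2.00-fold, and by 0.85 with mLIF (adjusted p = 0.0235), and was -0.61 with mOSM (adjusted p = 0.0502). The cytokines did not differ by a called amount from one another, and the 95% interval of hlOSM against mOSM was -0.87 to 0.09. The mLIF call was lost with the replicate number as a block (adjusted p = 0.0796) and without PBS replicate 1 (0.067), PBS replicate 3 (0.109), mLIF replicate 2 (0.0506) or mLIF replicate 3 (0.119). The mOSM difference passed in 6 of the 20 other fits that tested Cdkn1c, with adjusted p between 0.0378 and 0.0488. Of its exonic bases, 30.7% overlap Gm44732 on the other strand.

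Per kb of exon, Cdkn1a had the highest level of the 10 genes in every group, with means of 82.5 to 91.3 normalized counts per kb, and its libraries lay above those of Ccnd2, the next in order, within each group. With PBS the order then ran from Ccnd1 at 62.1 over Rb1 at 46.8, Cdk4 at 28.4, Cdkn1b at 24.8, Cdkn2c at 13.0, Cdk6 at 12.4 and Cdkn1c at 11.3 to Ccnd3 at 8.09. In this order Cdk4 overlapped Cdkn1b, Cdkn2c overlapped Cdk6, and Cdk6 overlapped Cdkn1c. The order depends on the joined exon lengths. In normalized counts not divided by length, Ccnd3, with a mean of 71 with PBS, stood above Cdkn2c at 35 and Cdkn1c at 23. The sum of the 3 Cip/Kip inhibitors was 123 ± 6.97 normalized counts per kb with PBS, 118 ± 4.29 with mLIF, 120 ± 8.36 with mOSM and 111 ± 3.11 with hlOSM (SD, n = 3 each). Divided by the sum of the D cyclins, it was 0.843 with PBS (0.807 to 0.883 over the libraries) and 0.828 with mLIF (0.818 to 0.839). The ratio was 1.31 with mOSM (1.20 to 1.42) and 1.18 with hlOSM (1.08 to 1.24), and these libraries lay above those of PBS and mLIF. The mean Cip/Kip sum was no higher with either OSMR ligand than with PBS. The higher ratio thus restates the lower D cyclin sum, chiefly that of Ccnd1.

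Cdkn2c, which encodes the INK4 inhibitor p18, fell with mOSM. It lies at chr4:109660876-109667189 and had 33, 39 and 33 normalized counts with PBS and 32, 37 and 30 under mLIF. It had 24, 18 and 23 under mOSM and 28, 27 and 35 under hlOSM. The mOSM libraries lay below those of all other groups, while the other groups overlapped. It fell by 0.67 on the log2 scale against PBS (SE 0.172, adjusted p = 0.00437 in limma) and by 0.59 against mLIF (adjusted p = 0.0256). With hlOSM it was -0.22 against PBS (adjusted p = 0.33). The difference of hlOSM against mOSM was 0.45 (95% interval 0.10 to 0.81), which did not pass after correction (adjusted p = 0.519), so that the 2 OSMR ligands were not shown to differ. The call against mLIF was lost with the replicate number as a block (adjusted p = 0.0841) and without mLIF replicate 1 (0.0621), mLIF replicate 2 (0.131) or mOSM replicate 2 (0.123).

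Rb1, the gene of the retinoblastoma protein, lies at chr14:73183673-73325822. It had 284, 269 and 291 normalized counts with PBS, 324, 288 and 312 under mLIF, 303, 353 and 286 under mOSM, and 310, 311 and 372 under hlOSM. The hlOSM libraries lay above the PBS libraries and the other cytokines overlapped them. Rb1 rose by 0.23 on the log2 scale with hlOSM (SE 0.082, adjusted p = 0.0306 in limma), and was 0.13 with mLIF (adjusted p = 0.33) and 0.15 with mOSM (adjusted p = 0.164). Without PBS replicate 1, PBS replicate 2 or hlOSM replicate 3 the adjusted p was 0.0534, 0.108 and 0.193. Of its exonic bases, 14.9% overlap Rcbtb2 and Lpar6 on the other strand. Against PBS, Rcbtb2 was called only with hlOSM, where it fell by 0.31 (adjusted p = 0.00596 in limma). Lpar6 was called only with mOSM, where it rose by 0.42 (adjusted p = 0.0314), and the replicate block ended this call (0.0834).

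**Figure D3:**
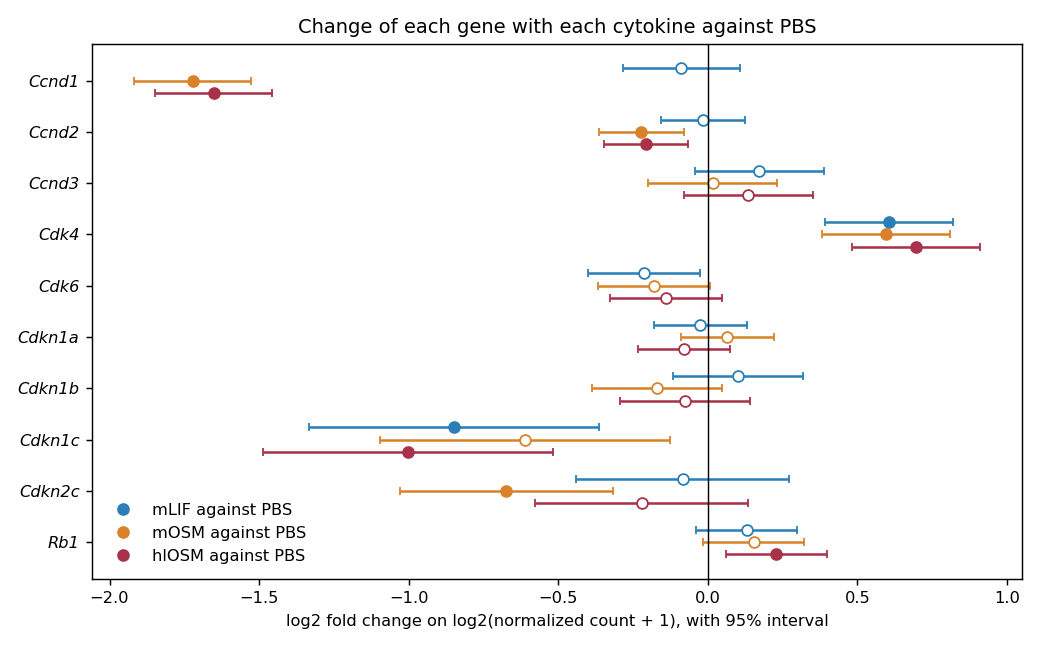
Log2 fold change of each gene with mLIF, mOSM and hlOSM against PBS (horizontal axis, on log2 of the normalized count plus 1), with 95% intervals. Filled points passed an adjusted p of 0.05 and open points did not. Ccnd1 stands at -1.72 and -1.65 with mOSM and hlOSM and at -0.09 with mLIF, and Cdk4 between 0.60 and 0.70 with all 3.

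The other genes of the pathway were taken from lists of fixed membership, which describe these libraries and are not independent of earlier results on them. Over all genes tested, 5.47% rose and 4.44% fell with mLIF, 15.4% rose and 15.8% fell with mOSM, and 18.2% rose and 19.8% fell with hlOSM. Of 15 other cyclins, CDKs and activators tested, limma called none with mLIF. With mOSM, Cdk2 and Cdc25a rose and 4 fell (Ccne2, Ccna2, Ccnb2 and Wee1), and with hlOSM Cdk7 rose and 5 fell (Ccne2, Ccnb2, Ccnf, Cdk1 and Wee1). Ccne1, for cyclin E1, was not called with any cytokine. Ccne2, for cyclin E2, had means of 132 normalized counts with PBS, 109 under mLIF, 101.3 under mOSM and 82.3 under hlOSM, and had called log2 fold changes of -0.38 for mOSM and -0.69 for hlOSM (adjusted p = 0.0212 and 0.000125). Cdk2, the kinase of cyclin E, rose by 0.28 with mOSM (adjusted p = 0.0145) and was 0.20 with hlOSM (adjusted p = 0.0658). Cdk1, the mitotic kinase, fell by 0.69 with hlOSM (adjusted p = 0.0134). Wee1, a kinase that holds CDK1 inactive, fell by 0.62 and 0.72 with mOSM and hlOSM, and Cdk7, of the CDK-activating kinase, rose by 0.46 with hlOSM (adjusted p = 0.00023). The block ended the calls of Ccna2 with mOSM (adjusted p = 0.0852) and of Ccnf with hlOSM (adjusted p = 0.0812).

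Of the other INK4 inhibitors, Cdkn2d rose with mOSM and hlOSM, and with mLIF by a call that several fits did not keep. It had 20, 29 and 30 normalized counts with PBS, 38, 36 and 38 under mLIF, 57, 45 and 49 under mOSM, and 53, 48 and 47 under hlOSM. All treated libraries lay above the controls. Its log2 fold change was 0.51, 0.92 and 0.90 (adjusted p = 0.0424, 9.34e-05 and 9.68e-05 in limma). The mLIF call was lost with the block (adjusted p = 0.11), with no filter, in a fit of the 6 libraries compared, without PBS replicate 1, without any 1 of the mLIF replicates and without hlOSM replicate 2. Cdkn2b was not called, at -0.43 with hlOSM (adjusted p = 0.154), and Cdkn2a and Cdkn3 were too low to be tested.

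Of 15 pocket protein, E2F and DREAM genes tested, limma called none with mLIF. With mOSM 2 rose and 3 fell (Rbl2, E2f7 and Tfdp2), and with hlOSM 2 rose and 6 fell. Rbl2, for the pocket protein p130, had means of 350, 327, 304 and 279 normalized counts with PBS, mLIF, mOSM and hlOSM, and fell by 0.20 with mOSM and by 0.32 with hlOSM (adjusted p = 0.0294 and 0.000809). Rbl1, for p107, fell by 0.56 with hlOSM (adjusted p = 0.0111). Of the E2F factors, E2f1, an activator, fell by 0.86 with hlOSM from a mean of 24.0 to 12.7 normalized counts (adjusted p = 0.00252), and E2f7, a repressor, fell by 0.77 (adjusted p = 0.00277). The repressors E2f4 and E2f5, named after their values were seen as the 2 genes of the list that rose, rose with mOSM and with hlOSM. With the block, the mOSM calls of E2f5 (adjusted p = 0.0611), Rbl2 (0.0578) and E2f7 (0.0744) were lost.

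Part of the genes under E2F control fell with the OSMR ligands. Of 32 genes of the S phase, 2 fell with mLIF (Mcm7 and Cdc45), 11 with mOSM and 14 with hlOSM, and limma called none as risen. With the block these counts were 0, 8 and 12, so that both mLIF calls were lost (adjusted p = 0.089 for Mcm7 and 0.102 for Cdc45). Their median log2 fold change was -0.04, -0.20 and -0.29, beside -0.01 to 0.00 over all genes. Pola1, a subunit of DNA polymerase alpha, fell by 0.45 with mOSM and 0.68 with hlOSM, and Uhrf1, which maintains DNA methylation, fell by 0.50 and 0.85. The number that fell with mOSM lay between 7 (without PBS replicate 3) and 14 (quantile rescaling) over the alternatives, and with hlOSM between 10 (without hlOSM replicate 3) and 16 (quantile rescaling).

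Of 24 mitotic genes tested, 3 fell with mLIF (Mki67, Cenpa and Cenpf) and 9 with mOSM, while with hlOSM 12 fell and Ttk rose. Their median log2 fold change was -0.10, -0.19 and -0.34. Mki67, which marks cycling cells, had 604, 583 and 718 normalized counts with PBS, 501, 537 and 543 under mLIF, 483, 485 and 524 under mOSM, and 512, 487 and 411 under hlOSM, so that all treated libraries lay below the controls. It fell by 0.26, 0.35 and 0.43 with mLIF, mOSM and hlOSM (adjusted p = 0.0356, 0.00171 and 0.00015 in limma). Top2a, the topoisomerase that untangles chromosomes, was -0.16 with mLIF (adjusted p = 0.183) and fell by 0.34 with mOSM and 0.51 with hlOSM. Cenpa, the histone of the centromere, fell by 0.31, 0.59 and 0.77, and Anln and Prc1, which act in cytokinesis, fell by 0.83 and 0.78 with hlOSM. With the block, 1, 8 and 10 fell with mLIF, mOSM and hlOSM, and the mLIF calls of Mki67 (adjusted p = 0.0569) and Cenpa (0.0591) and the hlOSM call of Ttk (0.0699) were lost. No gene of either list was called for hlOSM against mOSM by limma, where only 0.106% of all genes were called.

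Markers of other cells moved with the same treatments. Of 6 smooth muscle and pericyte markers tested, none was called with mLIF and 5 fell with mOSM and with hlOSM. The summed level of the whole list was 512 to 680 normalized counts with PBS, 430 to 488 with mLIF, 248 to 278 with mOSM and 221 to 257 with hlOSM. The mOSM and hlOSM libraries thus lay below those of PBS and mLIF. Myh11, a myosin of smooth muscle, had 25, 25 and 42 normalized counts with PBS and 8, 6 and 4 under mOSM, and Cnn1 was between 0 and 2 in all libraries. Of the 7 fibroblast markers, Col1a2 fell with mLIF. With mOSM 2 rose (Col3a1 and Dcn) and 2 fell (Col1a2 and Pdgfra), and with hlOSM 3 rose (Lum in addition) and 4 fell, among them Col1a1 (-0.34, adjusted p = 0.00224). The fibroblast sum was 2071 to 2219 with mLIF, 2435 to 2861 with mOSM and 2280 to 2514 with hlOSM.

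Of the 7 endothelial markers, 5 rose with mOSM and with hlOSM, and Pecam1 fell with mLIF, with sums of 1147 to 1207, 1404 to 1619 and 1411 to 1531 normalized counts. Of 5 macrophage markers tested, Cd68 rose with each cytokine and Lyz2 fell with hlOSM, with sums of 280 to 323, 342 to 389 and 317 to 389, and Ptprc was called with none. Of the 6 cardiomyocyte markers, 5 fell with mLIF (none without mLIF replicate 3) and all 6 with mOSM and hlOSM, with sums of 12647 to 13999, 11473 to 13344 and 11857 to 12258. With the block, the mLIF calls of Ryr2, Pln and Col1a2 and the hlOSM calls of Lum and Tek were lost. The part of any of these cells in the changes of Ccnd1, the inhibitors and the cell cycle genes was not tested.

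**Figure D4:**
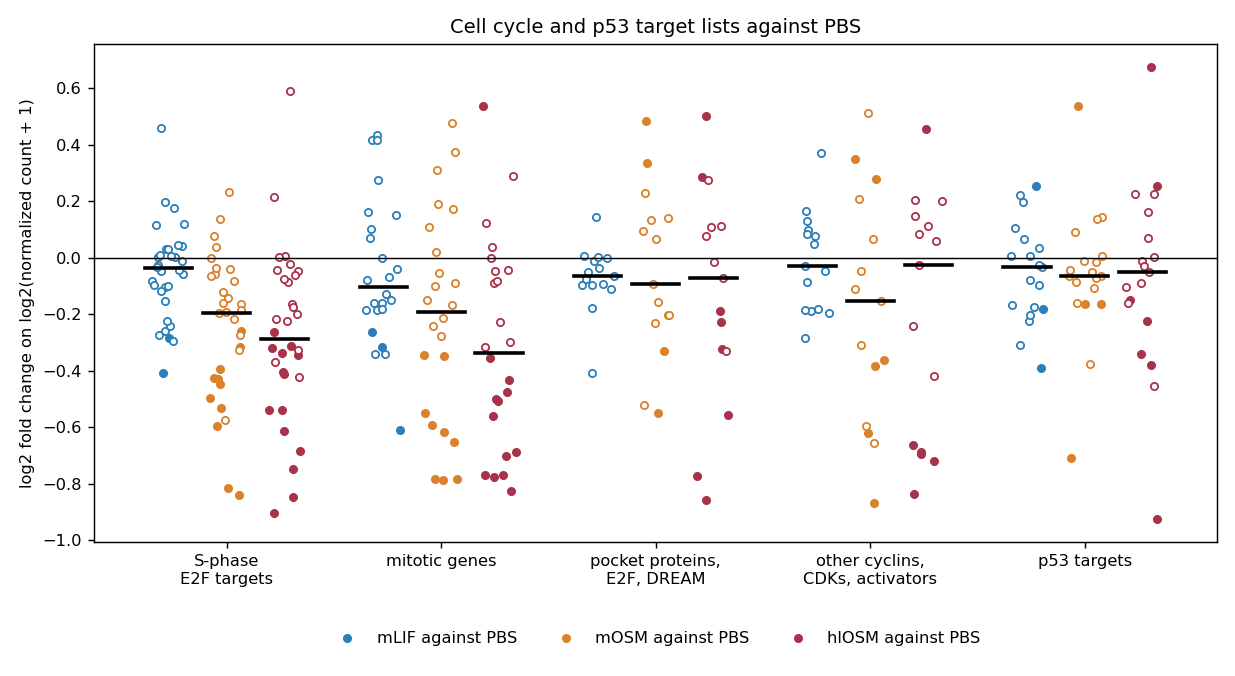
Log2 fold change of each tested gene of 5 lists with mLIF, mOSM and hlOSM against PBS (vertical axis, on log2 of the normalized count plus 1). Filled points passed an adjusted p of 0.05, open points did not, and black lines are list medians, which for the S-phase genes are -0.04, -0.20 and -0.29.

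Of 10 genes that act on the turnover of D cyclins and p27, limma called none with mLIF. Fbxo31 rose and Usp2 fell with mOSM, and with hlOSM 2 rose (Fbxo31 and Gsk3b) and 4 fell (Usp2, Ambra1, Dyrk1a and Dyrk1b). Fbxo31, a ubiquitin ligase subunit that targets cyclin D1, rose by 0.34 with mOSM and 0.42 with hlOSM (adjusted p = 0.00302 and 0.000339). Usp2, a deubiquitinase that stabilizes cyclin D1, fell by 0.37 and 0.43 (adjusted p = 0.000756 and 0.000104). Dyrk1a, a kinase that phosphorylates cyclin D1 for degradation, fell by 0.22 with hlOSM. Skp2, which targets p27, was called with none of the cytokines, at 0.37, 0.13 and 0.24. With the block, the hlOSM calls of Gsk3b (adjusted p = 0.0633), Ambra1 (0.069) and Dyrk1b (0.0612) were lost.

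Of 19 p53 target genes, 1 rose (Gadd45a) and 2 fell (Sesn1 and Mdm2) with mLIF. Ccng1 fell in addition with mOSM, and with hlOSM 2 rose (Gadd45a and Zmat3) and 5 fell (Sesn1, Mdm2, Ccng1, Phlda3 and Fas). Gadd45a rose by 0.25, 0.54 and 0.68 on the log2 scale. Sesn1 fell by 0.39, 0.71 and 0.93, and Mdm2, which encodes the ligase that degrades p53, fell by 0.18, 0.16 and 0.22. With the block, the mLIF calls of Gadd45a (adjusted p = 0.0896) and Mdm2 (0.0553) were lost, as were those of Ccng1 with mOSM (0.0551) and hlOSM (0.0647) and of Zmat3 with hlOSM (0.0504). Trp53 itself had means of 126, 125, 130 and 140 normalized counts with PBS, mLIF, mOSM and hlOSM and was called with no cytokine. Cdkn1a, another target of p53, was thus called with none while list members were called in both directions.

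Of 18 transcription factors known to act on these genes, 3 rose (Myc, Stat3 and Cebpd) and 2 fell (Foxo3 and Foxo4) with mLIF. With mOSM 5 rose, Stat5a and Cebpb in addition, and 5 fell, Mycn, Stat5b and Jun in addition. With hlOSM 4 rose (Myc, Stat3, Stat5a and Cebpd) and 4 fell (Foxo3, Foxo4, Mycn and Jun). Myc, which acts on Cdk4 and on D cyclin genes, had 262, 239 and 267 normalized counts with PBS, 307, 316 and 357 under mLIF, 328, 406 and 290 under mOSM, and 357, 304 and 383 under hlOSM. All 9 treated libraries lay above the controls. Whether Myc acted on Cdk4 in these cells was not tested. Myc rose by 0.35, 0.40 and 0.44 on the log2 scale (adjusted p = 0.0272, 0.00336 and 0.00134 in limma). Stat3, the main factor below gp130, rose by 0.19, 0.35 and 0.35, and Cebpd, a STAT3 target, by 0.86, 1.44 and 1.41. Foxo3, which drives Cdkn1b transcription, fell by 0.28, 0.52 and 0.56, while Cdkn1b was not called. With the block, the mLIF calls of Stat3 (adjusted p = 0.0528) and Foxo4 (0.0758) were lost, as were those of Mycn with mOSM (0.079) and hlOSM (0.0754).

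The genes whose log2 values followed Ccnd1 most closely over the 12 libraries were Thbs2 (Pearson r = 0.9899), Adcyap1r1 (0.9882) and Gpam (0.9832), out of 8669 genes with a mean of at least 50 normalized counts. Thbs2, for thrombospondin 2, had means of 245, 230, 56.0 and 53.7 normalized counts with PBS, mLIF, mOSM and hlOSM. Adcyap1r1, a receptor of the neuropeptide PACAP, had 118, 107, 15.7 and 14.7, so that it too was high with PBS and mLIF and low with both OSMR ligands. For Cdk4 the closest were Stom (0.9835), Ubl4a (0.9744) and Pef1 (0.9721). Stom, for the membrane protein stomatin, had 414, 514, 521 and 549 normalized counts. These correlations rest on 12 libraries in 4 groups and are given as a description.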

How the data were processed

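RNA of cultured mouse cardiomyocytes was sequenced from 12 libraries of total RNA, with a stranded kit. Reads were trimmed by the authors and then aligned to mm10 with STAR 2.7.7a. featureCounts 1.6.5 assigned to a gene those that touched its exons and no other gene. The values deposited by the authors are scores on a normalized count scale, rounded to whole numbers. The normalization is not given in the sources used here. They are not reads, so that count models were not used.

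Groups and replicate numbers came from the sample titles. Genes that reached 10 normalized counts in 3 or more libraries (13184 of 22915) entered a single limma fit (version 3.58.1, R 4.3.3) of log2(normalized count + 1) over all 12 libraries and 4 groups, with a mean-variance trend, two-sided tests and Benjamini-Hochberg adjustment within each comparison. A pseudocount of 1 understates the change of low genes. The scripts were tested on simulated data. Levels per kb used the union of exons of the reference annotation. The 10 genes and all lists were chosen with earlier results of these data known. Besides the 10 genes, the text names, from each pathway list, up to 3 tested genes with the smallest adjusted p for hlOSM against PBS, a fixed set of cell cycle genes, the 3 genes most correlated with the called gene of the largest rise and of the largest fall, and 5 cell markers; the other names, given with counts of called list genes, for genes that overlap one of the 10 or for markers near 0, were chosen after their values were seen. One gene that this rule names is not reported here. Alternatives were pseudocounts of 0.1 and 5, no filter and a filter at 50, 2 rescalings, robust empirical Bayes, only the compared libraries, the replicate number as a block, and leaving out each library.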

Additional observations from a re-analysis of the deposited data

How the results depend on the processing

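The comparisons were recomputed under 9 other settings of the fit and without each of the 12 libraries. Of 1446 recomputed values, 1415 kept their side of the threshold, 16 no longer passed and 15 newly passed. None reversed past the threshold, and 33 changed sign without passing in either fit, with a size of at most 0.0862. Most recomputed values belong to genes not called in the main fit. Others leave out a library outside the comparison, which cannot move the fold change. The share that kept its side thus overstates how stable the calls are. The number of called genes among the 10 with mLIF against PBS, 2, was 1 with the filter at 50, which removes Cdkn1c from the test, and 1 with the replicate block, and 1 to 2 without single libraries. With mOSM against PBS it was 4, and 5 with a pseudocount of 5 or median-ratio rescaling, where Cdkn1c passed, 3 with the filter at 50, which removes Cdkn2c as well, and 3 to 5 without single libraries. With hlOSM against PBS it was 5, and 4 with the filter at 50, and 3 to 5 without single libraries, the lowest without PBS replicate 1. With mOSM against mLIF it was 2, and 1 with the replicate block, 3 with a pseudocount of 5, quantile rescaling, robust empirical Bayes or only the 6 libraries compared, where Ccnd2 passed, and 1 to 3 without single libraries. With hlOSM against mLIF it was 1, and 2 with quantile rescaling, where Ccnd2 passed as well (adjusted p = 0.0353 in limma), and 1 to 2 without single libraries. Besides the replicate block and the filter, the cause of these changes was not tested.

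The replicate numbers were not taken as pairs. Deviations from the group means correlated between same-numbered libraries at -0.406 to -0.151 over 18 pairs, and the replicate number held 1.70% of the variance within groups, against 25% without an effect of that number. Whether such an effect was removed before deposit is not given in the sources used here. If it was, the fit without the block overstates its degrees of freedom, and its p-values are too small. With the replicate block, the calls over all genes were 784 in place of 1307 with mLIF, 3330 in place of 4120 with mOSM and 4120 in place of 5002 with hlOSM against PBS, and 2 in place of 14 for hlOSM against mOSM. Among the 10 genes, the block ended the calls of Cdkn1c with mLIF and of Cdkn2c for mOSM against mLIF and no other. The list calls that it ended are named or counted with each list. The depth of the libraries is unknown, and genes at 10 to 40 normalized counts, such as Cdkn1c and Cdkn2c, have the widest intervals of the 10. List counts with mLIF were the least stable: without PBS replicate 3, no p53 target and no listed transcription factor fell with mLIF, in place of 2 and 2. Without PBS replicate 1, 1 p53 target fell with mOSM in place of 3.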
